A study of Mus musculus with 6 samples.

Results

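The 10 genes described here encode transporters of hexoses and of lactate that Sertoli cells and germ cells of the testis use, together with the membrane proteins that chaperone the lactate transporters. They were chosen by name among the 26743 genes of the deposited count table, and all 10 are in it. They are the hexose transporters Slc2a1, Slc2a3, Slc2a5, Slc2a8 and Slc2a12, the monocarboxylate transporters Slc16a1, Slc16a3 and Slc16a7, and the chaperones Bsg and Emb. Their RNA was counted in the testes of 3 WT and 3 Trf2-/- male mice at postnatal day 21 by RNA-seq, and mice are named by genotype and replicate number. The Trf2-/- mice carry the inactivated Trf2 gene, which the table lists as Tbpl1 and which encodes a relative of the TATA-binding protein, and no other allele or treatment is given for either genotype. The study's methods give a 129/SvPas background where they describe its tagged Trf2 mice and name no strain apart from this for the mice used here. The genotypes are compared in whole testis, which holds germ cells of several stages and somatic cells.

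Hexoses cross cell membranes through proteins of the SLC2 (GLUT) family, down their gradient. Lactate and pyruvate cross together with a proton through monocarboxylate transporters (MCTs) of the SLC16 family, which need the chaperones basigin (Bsg) or embigin (Emb) to reach the plasma membrane. In the seminiferous tubule, Sertoli cells take up glucose and release lactate, and spermatocytes and spermatids, which lie behind the blood-testis barrier, use this lactate as fuel.

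The WT mice had between 21582123 and 29859347 counts on genes and the Trf2-/- mice between 15187062 and 24530489, with Trf2-/- mouse 3 the least deep. Levels are given as CPM, which are counts brought to a common library size after scaling by edgeR's trimmed mean of M-values (TMM), and 3 counts correspond to between 0.105 and 0.190 CPM. Tbpl1 had 308, 283 and 294 CPM in WT mice 1 to 3 and 62.9, 64.3 and 55.8 CPM in Trf2-/- mice 1 to 3. Its log2 fold change was -2.27 (SE 0.06, adjusted p = 1.18e-06 in edgeR's quasi-likelihood test), so its level was low but not absent in the mice labelled Trf2-/-.

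Of the 10 transporter and chaperone genes, 4 were lower in Trf2-/- testis, namely Slc2a3, Slc2a5, Slc2a8 and Slc16a7, and 2 were higher, namely Slc2a12 and Slc16a1. Slc2a1, Slc16a3, Bsg and Emb did not pass the test. The test was edgeR's quasi-likelihood test with an adjusted p under 0.05 over 16924 tested genes, of which 31.4% passed in either direction, 20.2% as lower and 11.2% as higher. Slc2a5 and Slc2a8 were also past a 2-fold limit, which 4.30% of tested genes passed as lower and 0.609% as higher. By that limit 0 of the 10 genes were higher in edgeR's test, and the count was also 0 at an unadjusted p under 0.05 and in the Wald test of DESeq2. The median log2 fold change of the 10 genes was 0.04, and that of all tested genes was 0.04. With libraries scaled by their size alone, all tested genes divided into 2691 lower and 4267 higher instead of 3423 and 1889, and the counts of the 10 genes became 4 lower and 4 higher. In whole testis, fewer cells of a type and less RNA per cell cannot be told apart.

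**Figure D1:**
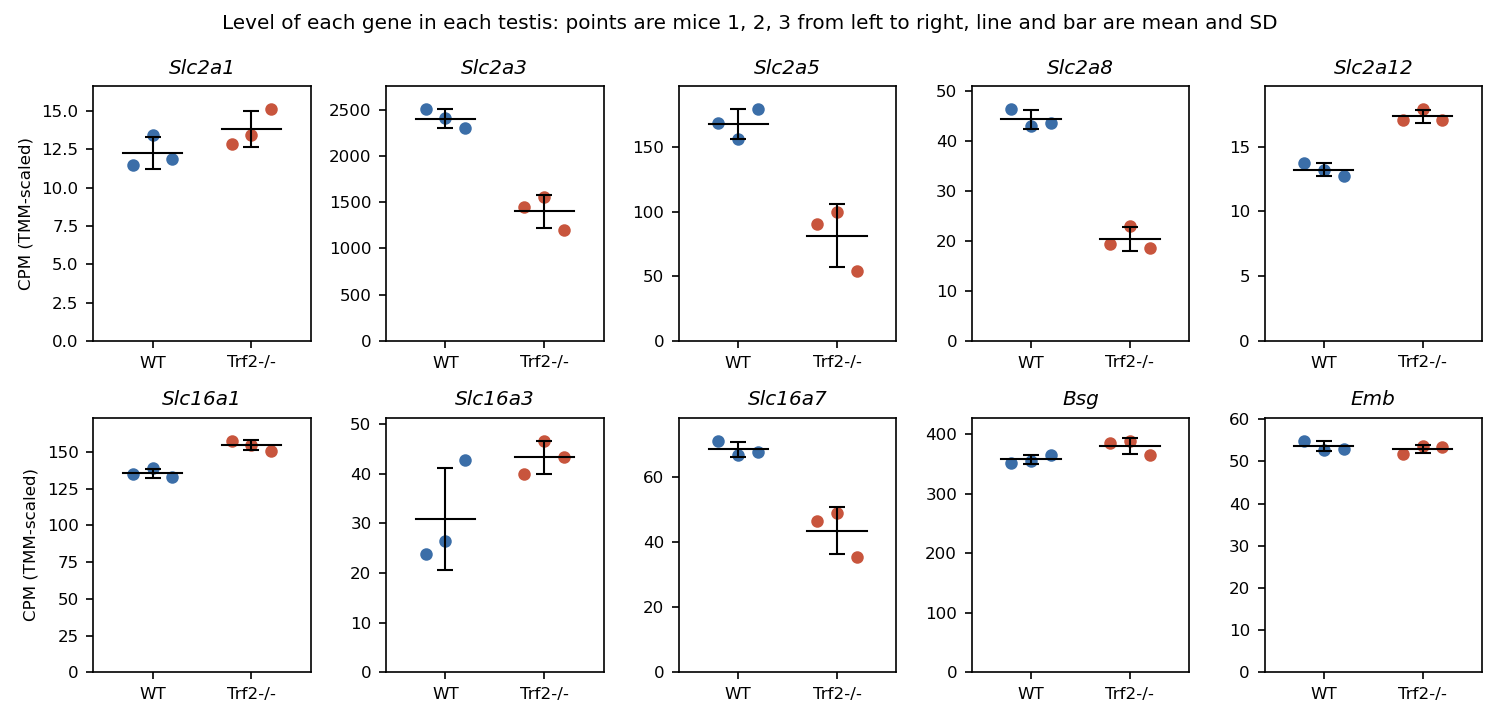
The vertical axes give the level in CPM (TMM-scaled, starting at 0) of each of the 10 genes, points are single mice, and the line and bar are the mean and SD of 3 mice. Slc2a3, Slc2a5, Slc2a8 and Slc16a7 lie lower in each Trf2-/- mouse than in each WT mouse, Slc2a12 and Slc16a1 lie higher, and the genotypes overlap for the other 4 genes.

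The 4 lower genes include 3 hexose transporters. Slc2a3 encodes GLUT3, a glucose transporter of high affinity. In the build NCBIM37 (mm9), to which all positions refer, it occupies chromosome 6 from 122677827 to 122751658 on the minus strand. Its level was 2506, 2408 and 2302 CPM in WT mice 1 to 3 and 1452, 1552 and 1197 CPM in Trf2-/- mice 1 to 3. All Trf2-/- mice were below all WT mice, and Trf2-/- mouse 3 was the lowest. The mean was 2405 ± 102 CPM in WT and 1400.3 ± 183 CPM in Trf2-/- testis (SD, n = 3 mice each). The log2 fold change was -0.78 (SE 0.09, 95% interval -0.98 to -0.58, adjusted p = 0.000558 in edgeR's quasi-likelihood test). By CPM it held rank 9 of 16924 tested genes in WT testis.

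Slc2a5 encodes GLUT5, the fructose transporter, and lies on the plus strand of chromosome 4 from 149493392 to 149518278. It had 169, 156 and 179 CPM in WT mice 1 to 3 and 90.3, 99.8 and 53.8 CPM in Trf2-/- mice 1 to 3. The genotypes did not overlap, and Trf2-/- mouse 3 stood well below the other Trf2-/- mice. The mean was 168 ± 11.6 CPM in WT and 81.3 ± 24.3 CPM in Trf2-/- testis (SD, n = 3 mice each). The log2 fold change was -1.04 (SE 0.18, 95% interval -1.45 to -0.62, adjusted p = 0.00312 in edgeR's quasi-likelihood test).

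Slc2a8 encodes GLUT8, a hexose transporter that resides mainly in membranes inside the cell. It occupies the minus strand of chromosome 2 from 32828510 to 32837603. Its level was 46.5, 43.1 and 43.6 CPM in WT mice 1 to 3 and 19.4, 23.1 and 18.6 CPM in Trf2-/- mice 1 to 3, so that each Trf2-/- mouse was far below each WT mouse. The mean was 44.4 ± 1.81 CPM in WT and 20.4 ± 2.38 CPM in Trf2-/- testis (SD, n = 3 mice each). The log2 fold change of -1.12 (SE 0.09, 95% interval -1.31 to -0.93, adjusted p = 0.000183 in edgeR's quasi-likelihood test) placed Slc2a8 at rank 36 of all tested genes by p. The 3 tested genes whose centred log2 CPM profile over the 6 mice lay nearest to that of Slc2a8 were Phf2, Pde4dip and Pik3cd, at Euclidean distances of 0.0653, 0.0949 and 0.125.

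Slc16a7 encodes MCT2, a monocarboxylate transporter of high affinity, and was the only one of the 3 monocarboxylate transporters described here that was lower. It occupies the minus strand of chromosome 10 from 124663520 to 124766019. Its level was 71.1, 66.9 and 67.6 CPM in WT mice 1 to 3 and 46.3, 49.0 and 35.3 CPM in Trf2-/- mice 1 to 3. The genotypes did not overlap, and Trf2-/- mouse 3 was again the lowest. From 68.5 ± 2.28 CPM in WT the mean changed to 43.5 ± 7.29 CPM in Trf2-/- testis (SD, n = 3 mice each). This gave a log2 fold change of -0.65 (SE 0.11, 95% interval -0.89 to -0.41, adjusted p = 0.00225 in edgeR's quasi-likelihood test).

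Both higher genes changed by less than any of the lower genes. Slc2a12 encodes GLUT12, a glucose transporter, and lies on the plus strand of chromosome 10 from 22364817 to 22424091. It had 13.7, 13.2 and 12.7 CPM in WT mice 1 to 3 and 17.0, 17.9 and 17.1 CPM in Trf2-/- mice 1 to 3, with no overlap between the genotypes. The mean was 13.2 ± 0.491 CPM in WT and 17.3 ± 0.484 CPM in Trf2-/- testis (SD, n = 3 mice each), and the log2 fold change was 0.39 (SE 0.08, 95% interval 0.21 to 0.57, adjusted p = 0.00636 in edgeR's quasi-likelihood test). The last exon of Slc2a12 shares 407 bases, or 9.61% of its exon bases, with the end of Tbpl1 on the opposite strand, which is the gene inactivated in these mice. The strand setting of the counting is not given in the sources used here. The table has counts for 52 genes whose exon bases all lie within exons of the opposite strand, 4 of them with 100 or more counts over the 6 mice, and counting without strand over these gene models would have left such genes at 0. The part of the overlap in the Slc2a12 result was not tested.

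Slc16a1 encodes MCT1, the most widely expressed monocarboxylate transporter, and lies on the plus strand of chromosome 3 from 104442591 to 104462385. Its level was 135, 139 and 133 CPM in WT mice 1 to 3 and 158, 155 and 151 CPM in Trf2-/- mice 1 to 3. The lowest Trf2-/- mouse was above the highest WT mouse. The mean was 135 ± 3.14 CPM in WT and 154 ± 3.37 CPM in Trf2-/- testis (SD, n = 3 mice each). This corresponds to a log2 fold change of 0.19 (SE 0.04, 95% interval 0.09 to 0.29, adjusted p = 0.0103 in edgeR's quasi-likelihood test). Without Trf2-/- mouse 1 it no longer passed, with a log2 fold change of 0.16 and an adjusted p of 0.0731 in the same edgeR test.

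The levels of Slc2a12 and Slc16a1, like those of the 4 lower genes, did not overlap between the genotypes. These 6 of the 10 genes compare with 49.2% of all tested genes whose CPM did not overlap.

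**Figure D2:**
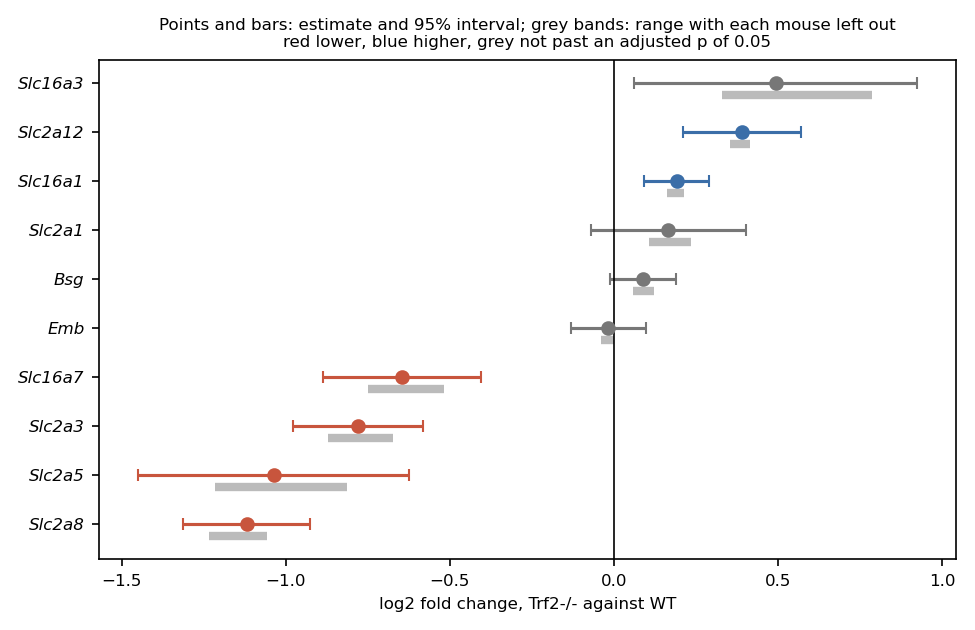
The horizontal axis gives the log2 fold change of Trf2-/- against WT testis from edgeR, with bars for the 95% interval and grey bands for the range when each mouse was left out in turn. The 4 lower genes lie between -1.12 and -0.65, and the interval of Slc16a3 is the widest of those above 0.

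The sequence before the transcript start is shown for the 6 genes that passed the test, since the inactivated gene encodes a relative of the TATA-binding protein. The study states, however, that Trf2 lacks selective recognition of the canonical TATA element and that it was found at all active promoters. Each line gives the 200 bases upstream of the start of the transcript with the longest coding sequence, in NCBIM37, 5′ to 3′ on the strand of the gene. Capitals mark exact matches, on either strand, to TATAAA (a form of the TATA box), TGACG (a core of the cyclic AMP response element), CCAAT or GGGCGG (the GC box). In Slc2a8 and Slc2a5 adjoining matches run together.
Slc2a3, chr6:122692764-122692963, minus strand: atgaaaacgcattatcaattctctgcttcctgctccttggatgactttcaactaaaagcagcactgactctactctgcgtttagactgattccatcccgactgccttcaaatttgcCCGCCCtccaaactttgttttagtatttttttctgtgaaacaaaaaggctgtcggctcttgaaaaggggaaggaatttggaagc
Slc2a5, chr4:149493192-149493391, plus strand: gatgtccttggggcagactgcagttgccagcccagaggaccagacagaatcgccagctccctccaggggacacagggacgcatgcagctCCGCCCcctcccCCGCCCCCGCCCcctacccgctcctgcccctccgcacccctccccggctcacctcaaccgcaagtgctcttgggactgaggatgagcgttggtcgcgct
Slc2a8, chr2:32837603-32837802, minus strand: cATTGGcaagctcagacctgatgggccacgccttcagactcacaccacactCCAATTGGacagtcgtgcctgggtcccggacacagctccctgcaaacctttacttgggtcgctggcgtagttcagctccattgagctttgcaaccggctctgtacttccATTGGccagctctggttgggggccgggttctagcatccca
Slc16a7, chr10:124766020-124766219, minus strand: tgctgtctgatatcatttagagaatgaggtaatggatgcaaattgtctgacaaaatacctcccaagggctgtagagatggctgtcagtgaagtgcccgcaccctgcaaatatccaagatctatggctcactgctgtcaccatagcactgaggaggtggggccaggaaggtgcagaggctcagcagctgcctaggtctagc
Slc2a12, chr10:22364617-22364816, plus strand: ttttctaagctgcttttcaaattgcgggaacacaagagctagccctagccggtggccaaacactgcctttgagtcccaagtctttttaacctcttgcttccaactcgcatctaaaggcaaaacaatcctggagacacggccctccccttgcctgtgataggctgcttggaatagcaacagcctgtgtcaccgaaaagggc
Slc16a1, chr3:104442391-104442590, plus strand: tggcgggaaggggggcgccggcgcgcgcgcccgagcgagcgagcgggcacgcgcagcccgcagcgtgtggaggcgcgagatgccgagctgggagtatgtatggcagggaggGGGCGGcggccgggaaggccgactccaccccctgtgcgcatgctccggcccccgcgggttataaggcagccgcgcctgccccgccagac

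TATAAA was found before 0 of the 10 genes, and in 5.40% of 15140 windows of the same length before protein-coding genes. Only these exact letters were searched. Variants of the TATA box, such as the tataag near the end of the Slc16a1 window, were not counted. GGGCGG was present before Slc2a3, Slc2a5 and Slc16a1 among the genes shown, and before Slc2a1, Slc16a3 and Emb among the others, while 52.3% of all windows held it. Slc2a5 had 3 such matches. CCAAT was found before Slc2a8, with 4 matches, and before Bsg, against 30.9% of all windows. TGACG was found before Slc16a3 and before no other of the 10 genes, against 21.6% of all windows. The windows of Slc2a12 and Slc16a7 held none of these letters. The number of CpG dinucleotides was 5, 12, 7 and 1 before the lower genes Slc2a3, Slc2a5, Slc2a8 and Slc16a7, and it was 5 before Slc2a12 and 29 before Slc16a1, with a median of 12 over all windows. These matches describe the letters of the windows only. The Slc2a3 window lies within the span of that gene, which has 8 annotated transcripts, and starts of the others were not searched. The starts used for Slc2a3, Slc16a7 and Bsg were not checked against RefSeq.

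Slc2a1, Slc16a3, Bsg and Emb did not pass the test. Slc2a1 encodes GLUT1, the widely expressed basal glucose transporter, and lies on the plus strand of chromosome 4 from 118781316 to 118809935. Its level was 11.5, 13.4 and 11.9 CPM in WT mice 1 to 3 and 12.9, 13.4 and 15.1 CPM in Trf2-/- mice 1 to 3, and the genotypes overlapped. The log2 fold change was 0.17 (SE 0.10, 95% interval -0.07 to 0.40, adjusted p = 0.247 in edgeR's quasi-likelihood test).

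Slc16a3 encodes MCT4, a transporter known for lactate export from glycolytic cells, and lies on the plus strand of chromosome 11 from 120809794 to 120822182. It had 23.7, 26.4 and 42.7 CPM in WT mice 1 to 3 and 39.9, 46.6 and 43.2 CPM in Trf2-/- mice 1 to 3. WT mouse 3 stood apart from the other WT mice and lay within the range of the Trf2-/- mice. The mean was 30.9 ± 10.3 CPM in WT and 43.2 ± 3.37 CPM in Trf2-/- testis (SD, n = 3 mice each), and the log2 fold change was 0.49 (SE 0.19, 95% interval 0.06 to 0.92, adjusted p = 0.0784 in edgeR's quasi-likelihood test). Without WT mouse 3 the log2 fold change was 0.79 with an adjusted p of 0.00333 in the same edgeR test. The Wald test of DESeq2 also placed it past the threshold, with a log2 fold change of 0.48 and an adjusted p of 0.0301. So did edgeR without the filter on low counts, with 0.50 and an adjusted p of 0.0171. In 7 of 12 alternatives Slc16a3 did not pass. Among these, the log2 fold change was 0.33 without WT mouse 1 and 0.39 without WT mouse 2. The adjusted p values were 0.239 and 0.232 in edgeR's test. WT mouse 3 was also the WT mouse with the highest summed level of 8 Leydig cell markers, at 348, 306 and 484 CPM in WT mice 1 to 3 against 443, 467 and 313 CPM in Trf2-/- mice 1 to 3. Among these markers Star, which delivers cholesterol to the mitochondrion for steroid synthesis, had 24.5, 18.2 and 92.1 CPM in WT mice 1 to 3 and 49.2, 102 and 20.4 CPM in Trf2-/- mice 1 to 3. Cyp11a1, Cyp17a1, Lhcgr and Nr5a1 were also highest in mouse 3 among the WT mice. The Leydig cell markers Hsd3b1, Insl3 and Hsd3b6 were not, and Hsd3b6 was lowest there, with 62.7, 54.3 and 49.2 CPM in WT mice 1 to 3. The part of these cells in the Slc16a3 values was not tested. Of the exon bases of Slc16a3, 831 (15.6%) lie over exons of Csnk1d on the opposite strand, which had 160.5 CPM in WT and 134 CPM in Trf2-/- testis.

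The chaperones differed little between the genotypes. Bsg, the partner of MCT1 and MCT4, lies on the plus strand of chromosome 10 from 79167103 to 79174724. It had 352, 355 and 365 CPM in WT mice 1 to 3 and 386, 389 and 365 CPM in Trf2-/- mice 1 to 3, with a log2 fold change of 0.09 (SE 0.04, adjusted p = 0.164 in edgeR's quasi-likelihood test). The genotypes overlapped through WT mouse 3 and Trf2-/- mouse 3. Without Trf2-/- mouse 3 Bsg passed, with a log2 fold change of 0.12 and an adjusted p of 0.0352 in edgeR's test, and with libraries scaled by size alone it passed with 0.18 and an adjusted p of 0.0104. In 10 of 12 alternatives Bsg did not pass. Among these, the adjusted p was 0.350 in the Wald test of DESeq2 and 0.493 in edgeR's test without Trf2-/- mouse 1.

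Emb, the preferred partner of MCT2, lies on the plus strand of chromosome 13 from 118009432 to 118062905. It had 54.9, 52.8 and 53.0 CPM in WT mice 1 to 3 and 51.8, 53.6 and 53.5 CPM in Trf2-/- mice 1 to 3, and the genotypes overlapped. The log2 fold change was -0.02 (95% interval -0.13 to 0.10, adjusted p = 0.824 in edgeR's quasi-likelihood test), and its sign turned, to 0.078, with libraries scaled by size alone. The transporter partner Slc16a7 was thus lower where its chaperone Emb gave an interval that spans 0, and the difference between these genes was not tested.

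Levels of different genes were compared as CPM per kilobase of the deposited gene length. In WT testis the order was Slc2a3 at 546 ± 23.2, Bsg at 204 ± 3.94, Slc2a5 at 50.4 ± 3.48, Slc16a1 at 30.6 ± 0.709 and Emb at 23.8 ± 0.521 CPM per kilobase (SD, n = 3 mice). Slc2a8 followed at 19.0, Slc16a7 at 17.6, Slc16a3 at 6.15, Slc2a1 at 4.29 and Slc2a12 at 3.12 CPM per kilobase. The ranges of neighbours in this order did not overlap, although those of Slc16a3 and Slc2a1 nearly met, at 4.72 and 4.70. In Trf2-/- testis Slc2a3 was again the highest by this length, at 318 ± 41.4 CPM per kilobase, followed by Bsg at 217 ± 7.57 and Slc16a1 at 34.9 ± 0.762. Slc2a5, at 24.4 ± 7.29, fell behind Slc16a1 and overlapped with Emb at 23.5 ± 0.458. Slc16a7 at 11.2 overlapped with Slc2a8 at 8.72, which overlapped with Slc16a3 at 8.60 CPM per kilobase. Slc2a1 at 4.84 and Slc2a12 at 4.09 were the lowest of the 10 genes.

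The place of Slc2a3 depended on the gene length. The deposited length of Slc2a3 is 4409 bases, whereas its annotated exons cover 7245 bases. Per kilobase of annotated exons Slc2a3 was still above Bsg in WT testis, at 332 ± 14.1 against 204 ± 3.94 (SD, n = 3 mice). In Trf2-/- testis the order turned, and Slc2a3 was below Bsg in mouse 1 with 200.4 against 220.1, in mouse 2 with 214 against 222 and in mouse 3 with 165 against 208, although the ranges of these genes overlapped. With this length the WT ranges of Slc16a3 and Slc2a1 overlapped as well.

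**Figure D3:**
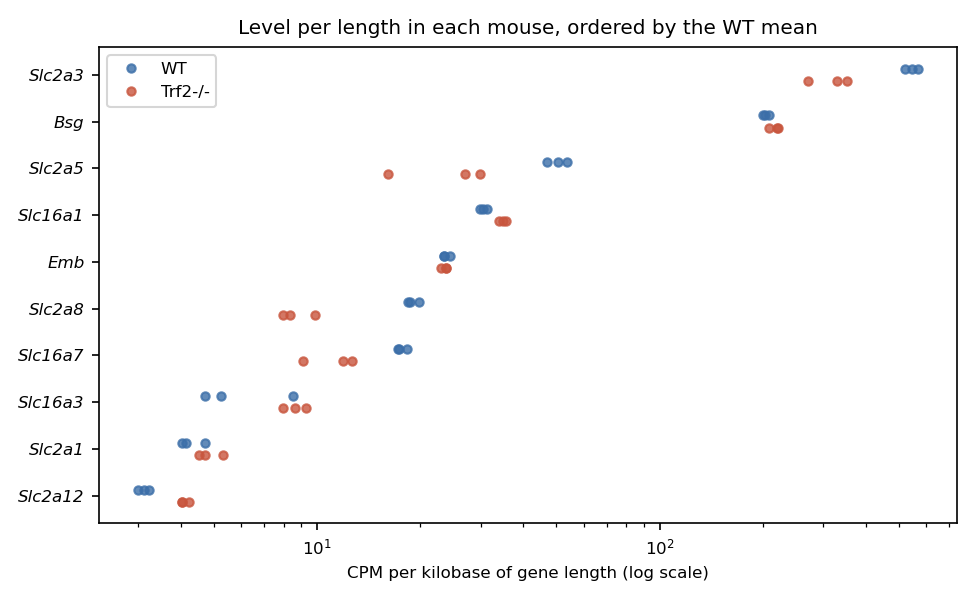
The horizontal log axis gives the level in CPM per kilobase of gene length, each point is 1 mouse, and genes are ordered by the WT mean. By the deposited length Slc2a3 is the highest of the 10 genes, at 546 in WT and 318 in Trf2-/- testis (below Bsg in Trf2-/- testis by annotated exon length), and the Trf2-/- points of Slc2a5 reach down to the level of Emb.

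The summed level of the 5 hexose transporters was 646, 619 and 602 CPM per kilobase in WT mice 1 to 3 and 373, 401 and 305 in Trf2-/- mice 1 to 3, with no overlap. Slc2a3 made up 87.6 ± 0.768% of this sum in WT and 88.4 ± 0.617% in Trf2-/- testis (SD, n = 3 mice each, p = 0.4 in a 2-sided exact permutation test), and its share overlapped between the genotypes. Slc2a5 held 8.11 ± 0.731% in WT and 6.68 ± 1.20% in Trf2-/- testis, and Slc2a8 held 3.05 ± 0.0652% and 2.43 ± 0.191%. The shares of Slc2a1, 0.691% and 1.37%, and of Slc2a12, 0.501% and 1.15%, were the ones that were higher in each Trf2-/- mouse.

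The summed level of the 3 monocarboxylate transporters was 53.4, 53.8 and 55.8 CPM per kilobase in WT mice 1 to 3 and 55.4, 56.9 and 51.7 in Trf2-/- mice 1 to 3. These sums overlapped, while the shares of Slc16a7 and Slc16a1 in them did not. The shares of a family depend on each other, because a lower share of any gene raises the summed share of the rest. Slc16a7 held 34.2, 32.0 and 31.1% of the sum in WT mice 1 to 3 and 21.5, 22.2 and 17.5% in Trf2-/- mice 1 to 3, a difference of -12.0 percentage points with no overlap. Slc16a1 held 56.3 ± 2.37% in WT and 63.9 ± 2.18% in Trf2-/- testis (SD, n = 3 mice each), also without overlap, and Slc16a3 held 11.3 ± 3.45% and 15.7 ± 1.25%, with overlap through WT mouse 3. For the 6 shares without overlap the 2-sided exact permutation p was 0.1, the smallest that 3 mice against 3 can give, or 0.133 after Benjamini-Hochberg adjustment over the 8 shares compared. It was 0.2 for Slc16a3. With 3 mice a genotype this exact test cannot pass a threshold of 0.05.

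**Figure D4:**
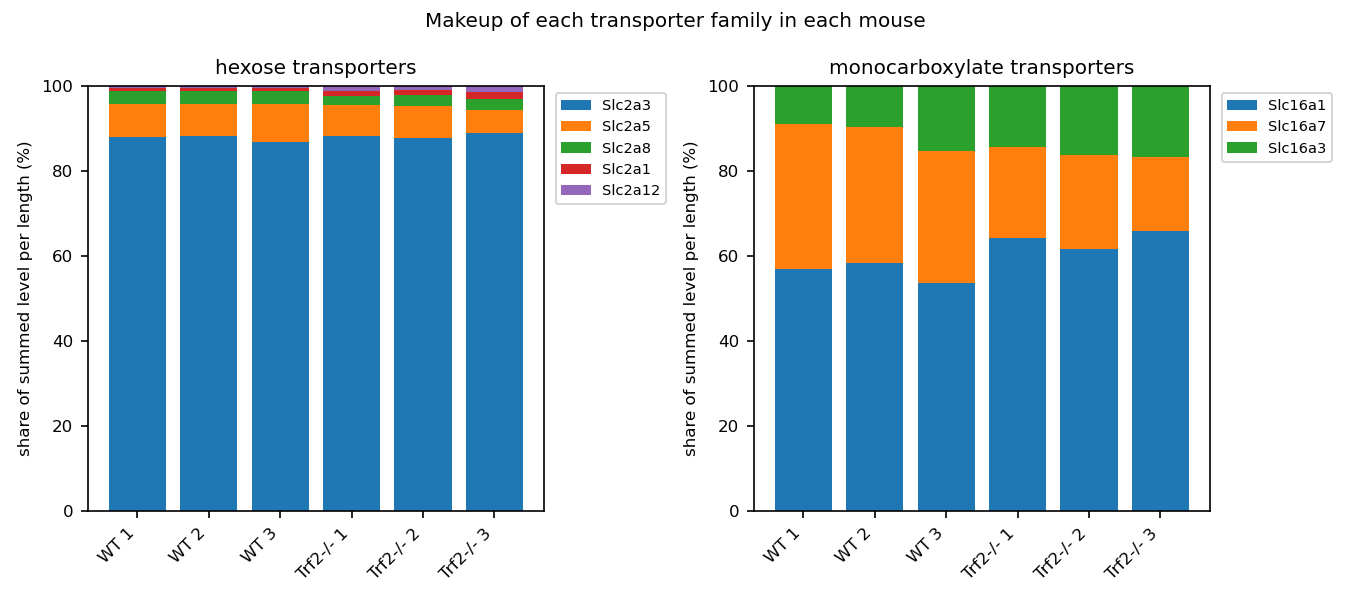
Stacked bars give the share (%) of each gene in the summed level per length of the 5 hexose transporters and of the 3 monocarboxylate transporters in each mouse. Slc2a3 fills between 86.8 and 89.0% of each bar on the left, and the share of Slc16a7 on the right lies between 31.1 and 34.2% in WT and between 17.5 and 22.2% in Trf2-/- mice.

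Trf2-/- mouse 3 was the lowest of its genotype for all 4 lower genes, and it was also the lowest for the summed markers of round spermatids, the early haploid germ cells. This list had 368, 347 and 359 CPM in WT mice 1 to 3 and 200, 220 and 138 CPM in Trf2-/- mice 1 to 3. Of its 10 tested genes 9 were lower and 0 were higher in edgeR's test, with 0 higher at an unadjusted p under 0.05 and in DESeq2, and the median log2 fold change was -1.73. The most abundant of them, Spata16, had 280 CPM in WT and 145 CPM in Trf2-/- testis, while Acrv1, a protein of the acrosome, had 1.29 and 0.0561 CPM, with at most 3 counts in each Trf2-/- mouse. The elongating spermatid list summed to between 6.86 and 8.58 CPM in WT and between 0.948 and 1.63 CPM in Trf2-/- testis, with all 4 of its tested genes lower, and its protamine Prm2 had at most 1 count in any mouse. The pachytene spermatocyte list had 6 lower and 3 higher of 11 tested genes. Trf2-/- mouse 3 was the lowest of its genotype for the elongating and for the pachytene sum as well. The pachytene sum was 8229, 7892 and 7820 CPM in WT mice 1 to 3. It was 6916, 6952 and 6188 CPM in Trf2-/- mice 1 to 3. Beside these germ cell lists, 20.2% of all tested genes passed as lower and 11.2% as higher. The part of these germ cells in the decrease of the 4 transporter genes was not tested.

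The remaining lists, of somatic cells and of spermatogonia, had higher genes or none that passed. Their counts compare with 11.2% of all tested genes that passed as higher and 20.2% as lower. Of 11 tested Sertoli cell markers 6 were higher and 0 lower in edgeR's test, also with 0 lower at an unadjusted p under 0.05 and in DESeq2. Their sum ranged from 2431 to 2562 CPM in WT and from 2825 to 3012 CPM in Trf2-/- testis, beside the higher Slc2a12 and Slc16a1. Of 11 tested macrophage markers 5 were higher, and the sum was 211, 186 and 188 CPM in WT mice 1 to 3 and 417, 252 and 213 CPM in Trf2-/- mice 1 to 3, with mouse 1 the highest. The spermatogonia sum was 330, 351 and 428 CPM in Trf2-/- mice 1 to 3. Among Trf2-/- mice, mouse 3 had the highest sums for spermatogonia, Sertoli cells and red blood cells. It had the lowest sums for Leydig cells, endothelial cells and macrophages. Higher genes numbered 2 of 7 for peritubular cells, 1 of 8 for Leydig cells, 1 of 8 for endothelial cells, 1 of 10 for spermatogonia and 0 of 5 for red blood cells, and none of these 5 lists had a lower gene in edgeR's test, at an unadjusted p under 0.05 or in DESeq2. For red blood cells the count of higher genes was also 0 at an unadjusted p under 0.05 and in DESeq2. The part of these cells in the increase of Slc2a12 and Slc16a1 was not tested.

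**Figure D5:**
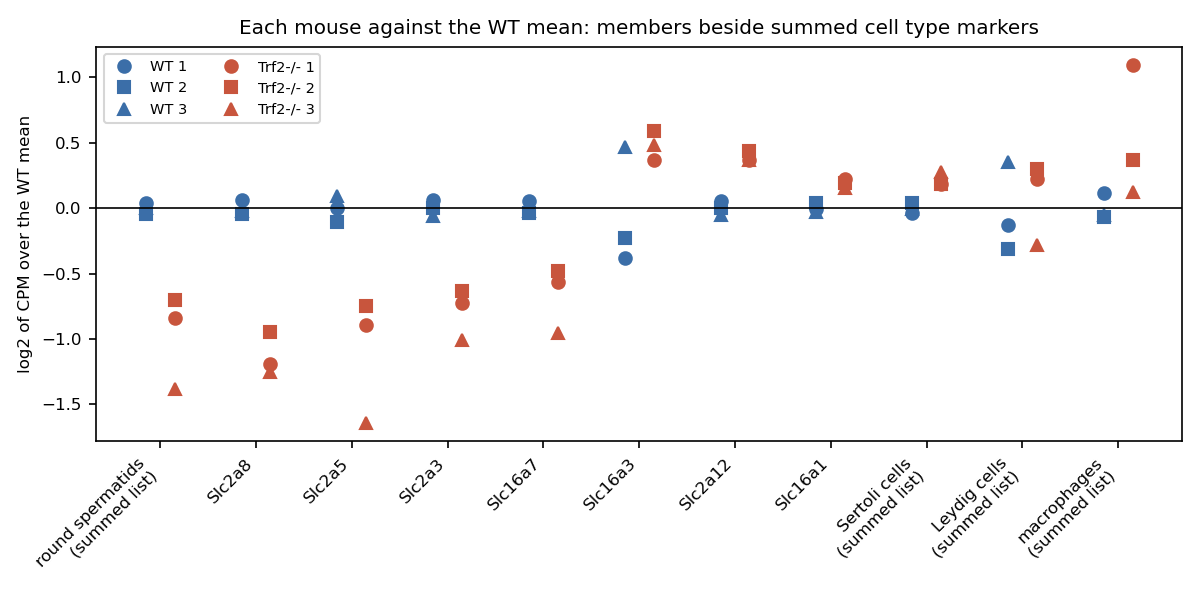
The vertical axis gives the log2 ratio of the CPM of each mouse to the WT mean, for 7 transporter genes and for the summed CPM of 4 cell type marker lists, and each symbol is 1 mouse. Trf2-/- mouse 3 (triangle) is the lowest Trf2-/- mouse for the summed round spermatid markers and for each of Slc2a8, Slc2a5, Slc2a3 and Slc16a7. Of the other summed lists shown, this mouse is the lowest of its genotype for Leydig cells and macrophages and the highest for Sertoli cells. WT mouse 3 is the highest WT mouse for Slc16a3 and for the summed Leydig cell markers, though not for each of these markers.

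Further genes of sugar and lactate handling were described from 5 lists of 60 genes, of which 48 were tested. They had 7 lower and 8 higher genes and a median log2 fold change of 0.14. Over all tested genes 20.2% passed as lower and 11.2% as higher, or 31.4% in either direction, which is the background for each of these lists. Of 8 tested further genes of hexose transporter families, not all of which need carry hexoses, 0 passed in edgeR's test. At an unadjusted p under 0.05 in that test 1 was lower and 1 higher, and 0 passed in DESeq2. Slc2a4, which encodes the insulin-responsive GLUT4 and had the highest mean CPM of them over the 6 mice, had 3.60 CPM in WT and 3.82 CPM in Trf2-/- testis, where Slc2a13 had 3.86 CPM. Among 11 tested further SLC16 carriers and chaperone relatives, Slc16a10, a transporter of aromatic amino acids, was higher with a log2 fold change of 0.43 (adjusted p = 0.0128 in edgeR's quasi-likelihood test). The most abundant of this list, Nptn, a relative of Bsg, had 77.8 CPM in WT and 86.8 CPM in Trf2-/- testis and did not pass (adjusted p = 0.0549 in the same edgeR test).

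The enzymes that make and use lactate and pyruvate had 5 lower and 0 higher genes among 14 tested in edgeR's test, with 3 higher at an unadjusted p under 0.05 and 1 higher in DESeq2. Ldhc, the lactate dehydrogenase of germ cells and the most abundant of the list, had 2362, 2239 and 2237 CPM in WT mice 1 to 3 and 1477, 1657 and 1086 CPM in Trf2-/- mice 1 to 3. As for the 4 transporter genes, Trf2-/- mouse 3 was the lowest and the genotypes did not overlap. The log2 fold change of Ldhc was -0.70 (adjusted p = 0.00384 in edgeR's quasi-likelihood test), and that of Ldha, the lactate dehydrogenase subunit of muscle type, was -0.58 (adjusted p = 0.00852). Pdk2, a kinase that inhibits pyruvate dehydrogenase, had -0.96 (adjusted p = 0.000764), Pdha2, the germ cell subunit of that enzyme, had -0.20 (adjusted p = 0.0122), and Brp44, a subunit of the mitochondrial pyruvate carrier, had -0.21 (adjusted p = 0.0451), all in the same edgeR test.

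Of 4 tested genes for enzymes that phosphorylate hexoses, Hk1 was lower, with a log2 fold change of -0.80 (adjusted p = 0.00104 in edgeR's quasi-likelihood test). Hk2, the most abundant hexokinase gene of the list at 103 CPM in WT and 120.4 CPM in Trf2-/- testis, was higher with 0.23 (adjusted p = 0.0119), and so was the fructose kinase gene Khk with 0.56 (adjusted p = 0.0111), in the same edgeR test. Khk was thus higher where the fructose transporter gene Slc2a5 was lower.

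Among 11 tested regulators of glucose uptake, Prkaa1, a catalytic subunit of AMP-activated kinase, was lower with a log2 fold change of -0.29 (adjusted p = 0.0208 in edgeR's quasi-likelihood test). Arrdc4, an arrestin that lowers glucose uptake, was higher with 0.42 (adjusted p = 0.00718), as were the receptor genes Igf1r with 0.30 (adjusted p = 0.0124) and Fshr with 0.42 (adjusted p = 0.0259) and the Rab regulator Tbc1d4 with 0.37 (adjusted p = 0.00762), in the same edgeR test. Tbc1d1, the most abundant of this list, had 422 CPM in WT and 404 CPM in Trf2-/- testis and did not pass. Fshr is also a marker of Sertoli cells.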

How the data were processed

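Total RNA libraries of the 6 testis replicates were made with a stranded kit after depletion of ribosomal RNA and sequenced as single-end reads of 50 bases. Per the labels and the submitters' processing notes, the tools were CASAVA 1.8.2, TopHat2 2.0.10, Bowtie2 2.1.0, HTSeq 0.5.4p3 and DESeq2 1.0.19 with the build mm9. The authors deposited raw read counts per gene. A further 12 columns of normalized values were not used. The annotation release and the strand setting of the counting are not given in the sources used here.

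The deposited counts were filtered with filterByExpr, which kept 16924 genes with 99.9% of the counts, and tested with edgeR 4.0.16 (R 4.3.3): TMM, glmQLFit, glmQLFTest and Benjamini-Hochberg adjustment over all tested genes. SEs were derived from the log2 fold change and the F statistic. CPM used TMM-scaled libraries, and levels per length used the deposited gene lengths. Intervals come from the fit, which takes in counting error and the variation between the 3 mice of a genotype, and do not cover the choice of processing. The floor of 3 counts refers to counting only. The study's methods name 3 independent biological replicates per genotype without saying that each is 1 animal. The chi-square over its degrees of freedom was at least 3.32 between any mice of 1 genotype, which is above sampling noise. Loci, overlaps and upstream windows came from an annotation of NCBIM37, in which 98.7% of shared genes had the same start and end as in the deposited table. RefSeq starts were found for 7 of the 10 genes and lay within 61 bases of the starts used. None was found for Slc2a3, Slc16a7 and Bsg, so their starts were not checked in this way.

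The 10 genes and all lists were chosen with earlier results of these data known. Named are the 10 genes, Tbpl1, each related gene past the threshold except 1 that is not reported here, the most abundant gene of each related list, markers given beside a result, and the 3 genes nearest to Slc2a8. Acrv1, Prm2, Star, Slc2a13, Csnk1d and the further named Leydig cell markers were chosen after their values were seen. Alternatives were DESeq2 size factors, library size, no filter or at least 10 counts in every mouse, the Wald test of DESeq2 1.42.0, a block for the replicate number, leaving out each mouse, other thresholds, shares as counts, and, chosen after seeing the data, shares and levels per annotated exon length. Scripts were tested on simulated data.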

Additional observations from a re-analysis of the deposited data

How the results depend on the processing

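Of 120 log2 fold changes of the 10 genes under 12 alternatives each, 111 kept their direction and side of the threshold, 7 passed newly, 1 lost the threshold and 1 reversed. Scaling by library size alone gave 4 higher genes, turned Emb to 0.078 (adjusted p = 0.251 in edgeR's test), placed Slc16a3 past the threshold at 0.59 (adjusted p = 0.0343) and gave 4 lower and 14 higher related genes. An adjusted p of 0.01 left 1 higher gene, and a 2-fold limit left 2 lower and 0 higher. With each mouse left out, the 10 genes had 4 lower throughout and 1 to 3 higher, with 1 without Trf2-/- mouse 1. Related genes had 5 to 7 lower and 5 to 11 higher, with 5 higher without WT mouse 2. The cause of these moves was not tested.

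With the replicate block the 10 genes had 4 lower and 3 higher, since Slc16a3 passed at 0.53 (adjusted p = 0.0448 in edgeR's test), and the related genes had 7 lower and 9 higher. All tested genes gave 3094 lower and 1486 higher with the block. Deviations of mice with the same number correlated at -0.0973, -0.0313 and -0.102. The labels do not say whether mice with the same number form pairs, and these values alone cannot settle it.

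The Slc2a8 share differed by -0.346 percentage points as counts and by -0.929 per annotated exon length, where Slc2a1 and Slc2a12 differed by 1.05 and 0.998. With each mouse left out, the difference for Slc16a7 ranged from -12.9 to -10.6 points and that for Slc2a5 from -1.83 to -0.741. Slc2a3 exceeded Bsg by 101 CPM per kilobase in Trf2-/- testis by the deposited length, and the difference was -23.5 by annotated exon length. In WT testis it was 341 and 128. The smallest count of any of the 10 genes in a mouse was 239, and the small number of mice limits the precision.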
